A study of Mus musculus with 4 samples.

Results

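The genes described here are 51 genes of mitosis, the centromere and the kinetochore, chosen as a list of mitotic regulators and structural proteins and looked up by name in the authors' peak annotation. The annotation named 12573 genes by at least 1 non-intergenic peak in either library, and 48 of the 51 were among them. For each gene the named non-intergenic peaks were counted and their lengths summed, and the share of the gene body lying inside peaks (coverage) was computed for the 21883 protein-coding genes of the reference. The mark was trimethylated lysine 36 of histone H3 (H3K36me3), profiled by ChIP-seq (sequencing of DNA pulled down with an antibody to the mark) in C57BL/6 forebrain neural progenitor cells at embryonic day 13. The mutant embryos carried a brain-specific deletion of the histone variant H2A.z1 (H2A.z1cKO, cKO below), and the others were wild type (WT). The sources used here name neither the driver of the deletion nor its extent, nor the number of embryos behind a library. Each genotype had 1 ChIP library and 1 input library, so nothing could be tested between genotypes, no p-value is given, and every difference is between 2 libraries.

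H3K36me3 is written by SETD2, which binds elongating RNA polymerase II, so that the mark is found in the bodies of transcribed genes and away from their starts. Dividing radial glia and intermediate progenitors of the embryonic cortex transcribe the mitotic programme anew in each cell cycle. Its promoters are known for a cell cycle genes homology region (CHR) and for CCAAT boxes, through which the DREAM and B-MYB-MuvB complexes, FOXM1 and NF-Y act. The products of the genes drive entry into mitosis (Cdk1 and its cyclins), attach chromosomes to the spindle (the kinetochore), delay anaphase until attachment is complete (the spindle assembly checkpoint), and compact, hold together and finally separate the chromosomes.

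Depth was similar, with 32927164 ChIP tags in cKO and 31984670 in WT, but the cKO list held 95750 peaks over 69.1 Mb and the WT list 36820 peaks over 13.3 Mb. Genotype and library cannot be told apart as the source of this excess. The labelled cell type was checked against its markers. Of 14 neural progenitor markers, 13 had a peak in the gene body in cKO and 11 in WT. Of 10 neuron markers, 3 had one in cKO and 4 in WT. Of 25 markers of blood, vessel wall, microglia and mesenchyme, 3 had a cKO peak and 0 had a WT peak. Over all reference genes, 43.7% had a peak in the body in cKO and 31.3% in WT. The count of neuron markers in WT was therefore not below the share over all genes. In chromatin pooled from many cells, a change in the share of dividing cells and a change of the mark in each cell cannot be told apart.

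Mitosis genes were almost all marked. A peak overlapped the body of 50 of the 51 genes in cKO, beside 43.7% of all reference genes, and of 46 in WT, beside 31.3% of all genes. The median coverage was 48.7% of the gene body in cKO and 11.0% in WT. Genes 5 kb or longer were counted as higher or lower in cKO where coverage differed by 10 percentage points or more. By this rule 45 of the 50 mitosis genes long enough were higher in cKO, beside 32.6% of the 16849 genes of that length, and none was lower, beside 0% of all genes. Much of the distance from the background lies in being marked at all. Among genes already marked in WT, 44 of 45 mitosis genes were higher in cKO, beside 75.3% of 6398 genes. Over 50% of the body was covered in 24 of the 50 genes in cKO, beside 9.22% of all genes, and in 2 of the 50 in WT, beside 0.196%. The median difference was 36.7 points over the 50 long mitosis genes and 0.361 points over all genes of that length, most of which carry little or no mark.

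**Figure D1:**
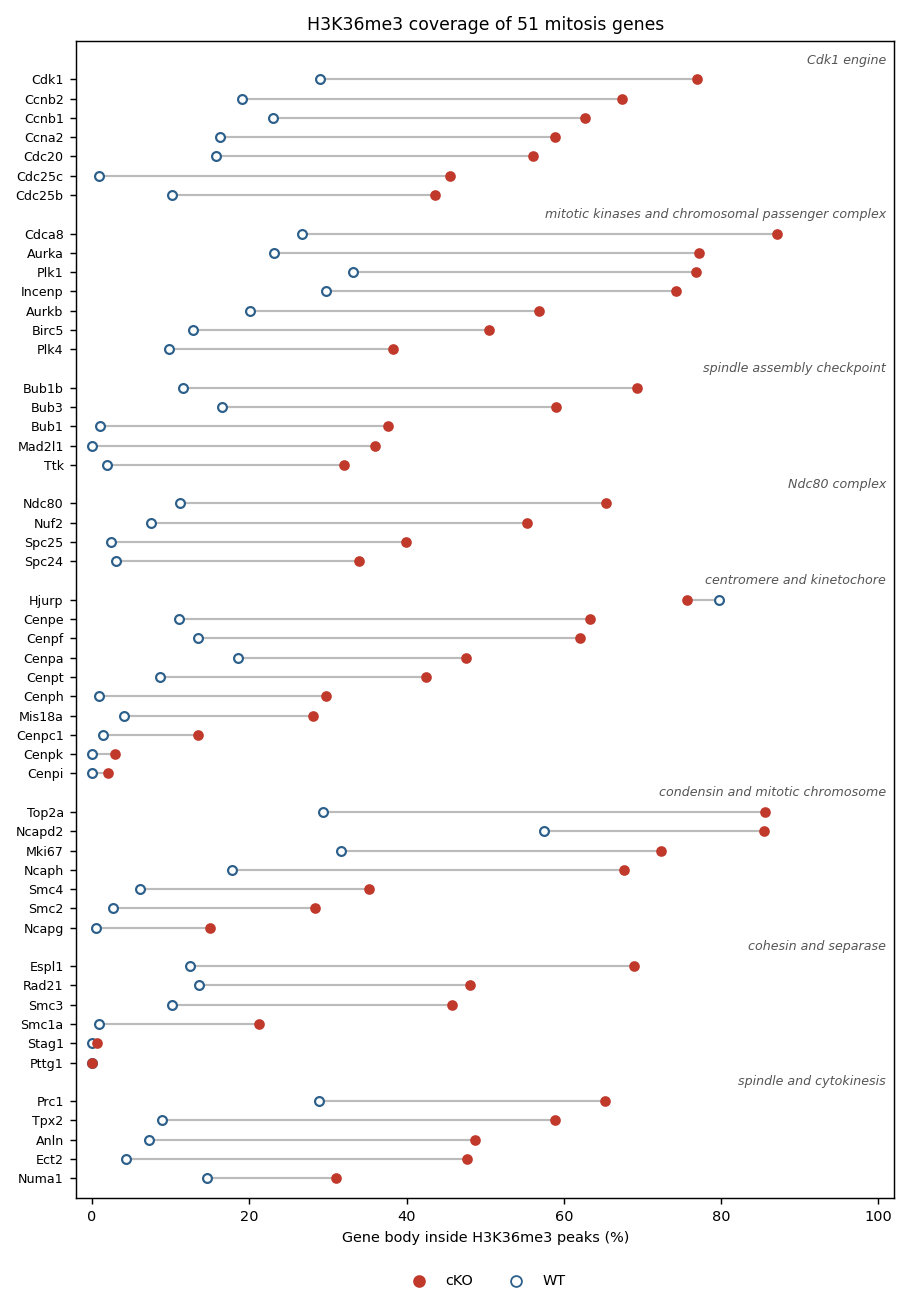
Share of each gene body inside H3K36me3 peaks (%, horizontal axis) for the 51 mitosis genes, grouped by role. Filled red points are the cKO library and open blue points the WT library, each 1 library with no error bar. The cKO point lies to the right for every gene except Hjurp, with 75.7% in cKO and 79.7% in WT, and Pttg1, which is at 0 in both.

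The named peaks gave the same direction. Of the 42 mitosis genes with named peaks in both genotypes, 40 had a summed peak length at least 2 times higher in cKO, which is close to the 89.9% of all 8054 such genes, and none was at least 2 times lower, beside 0.546%. The median ratio of cKO to WT was 4.21 for the mitosis genes and 5.48 for all genes. A further 6 genes were named in cKO alone (Cdc25c, Mad2l1, Cenph, Cenpi, Cenpk and Stag1), and 33.1% of all named genes were named in cKO alone. The only peak named Cenph lay outside its body, where 11 cKO peaks and 1 WT peak all carried the name Gm16335. The 3 genes never named were Smc2, Ncapd2 and Pttg1. Smc2 and Ncapd2 were nevertheless marked, since all 31 cKO peaks and all 4 WT peaks in the body of Smc2 carried the name of Gm12483 or Vma21-ps. In Ncapd2, all 5 cKO peaks and all 17 WT peaks carried the name of Scarna10 or Gapdh. Pttg1, which encodes securin, the inhibitor of separase, had no peak in its body in either genotype. Body coverage counts peaks of any name.

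**Figure D2:**
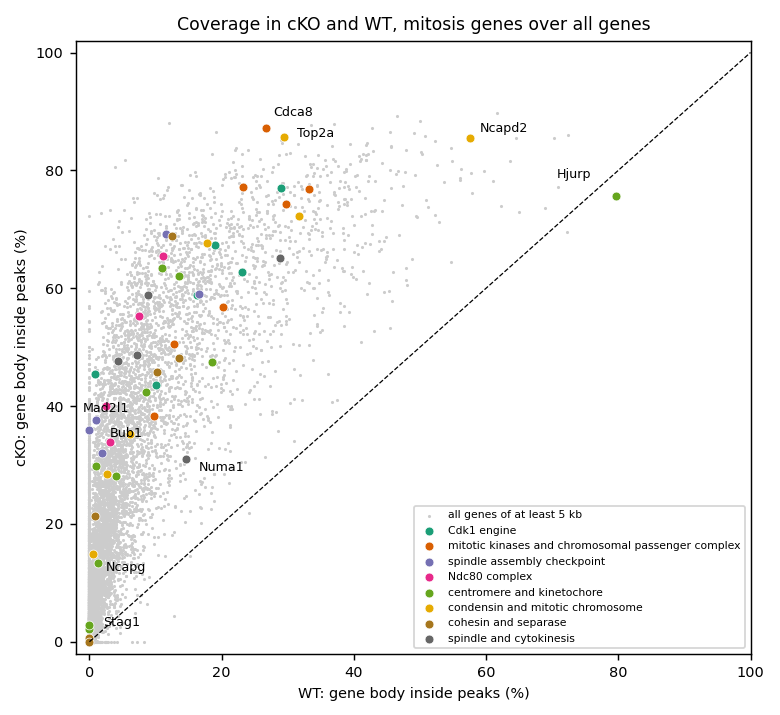
Coverage in cKO (vertical axis, %) against coverage in WT (horizontal axis, %). Grey points are all genes of at least 5 kb, coloured points are the 50 mitosis genes of that length by role, and the dashed line marks equal coverage. Among the mitosis genes Hjurp alone lies under the line, and Numa1 (31.0% in cKO, 14.6% in WT) lies nearest to the line among the other genes with WT coverage above 10%.

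The order of the genes was similar in both libraries. Spearman's rho between cKO and WT coverage was 0.88 over the 50 genes of at least 5 kb, a description of genes that share the 2 libraries. Coverage varied little with gene length, with a rho of -0.12 in cKO and -0.20 in WT over the same genes. In cKO the most covered mitosis genes were Cdca8 (87.2%), Top2a (85.6%) and Ncapd2 (85.5%). In WT they were Hjurp (79.7%), Ncapd2 (57.5%) and Plk1 (33.2%). At the low end, Stag1 had 0.645% in cKO, Cenpi 2.08% and Cenpk 2.91%, and none of these 3 had a peak in WT.

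Most WT peaks in these gene bodies lay under cKO peaks. Other cKO peaks lay where WT had none, as in the bodies of Mad2l1, Cenpi, Cenpk and Stag1, and their number was not counted. Of the 399 WT peaks in these gene bodies, 395 were overlapped by a cKO peak. The 4 others lay in Smc3 (2), Mis18a and Prc1. In the other direction, 76 cKO peaks each spanned 2 or more WT peaks. No share over the whole lists was at hand for either overlap, so neither sets these genes apart from others. The 662 cKO peaks had a median length of 560 bp (quartiles 320 and 1131 bp), while the 399 WT peaks had a median of 290 bp (quartiles 212 and 425 bp). Over all peaks of each list the median was 436 bp in cKO and 271 bp in WT. The modelled fragment length also differed, with 185 bp in cKO and 152 bp in WT, and its part in the peak lengths was not tested. Lengths above 2 kb were found for 11.3% of the cKO peaks in mitosis genes (75 peaks), beside 5.99% of the whole cKO list, and for 1.25% of the WT peaks (5 peaks), beside 0.475% of the whole WT list. With peaks within 3 kb joined, 39 of the 50 long genes were higher in cKO, beside 35.8% of all genes of that length, marked or not. None was lower, beside 0.0356%, and the median difference over the 51 genes was 26.9 points. Joining ended the call for 7 genes (Cdk1, Plk1, Aurkb, Cenpt, Top2a, Mki67 and Ncapd2) and added Cenpk. With peaks as called, 14 of the 46 genes marked in WT had fewer peaks but more covered bases in cKO, beside 15.2% of all WT-marked genes. They include Cdk1, Plk1, Aurka, Incenp, Cdca8, Top2a, Mki67 and Ncapd2.

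**Figure D3:**
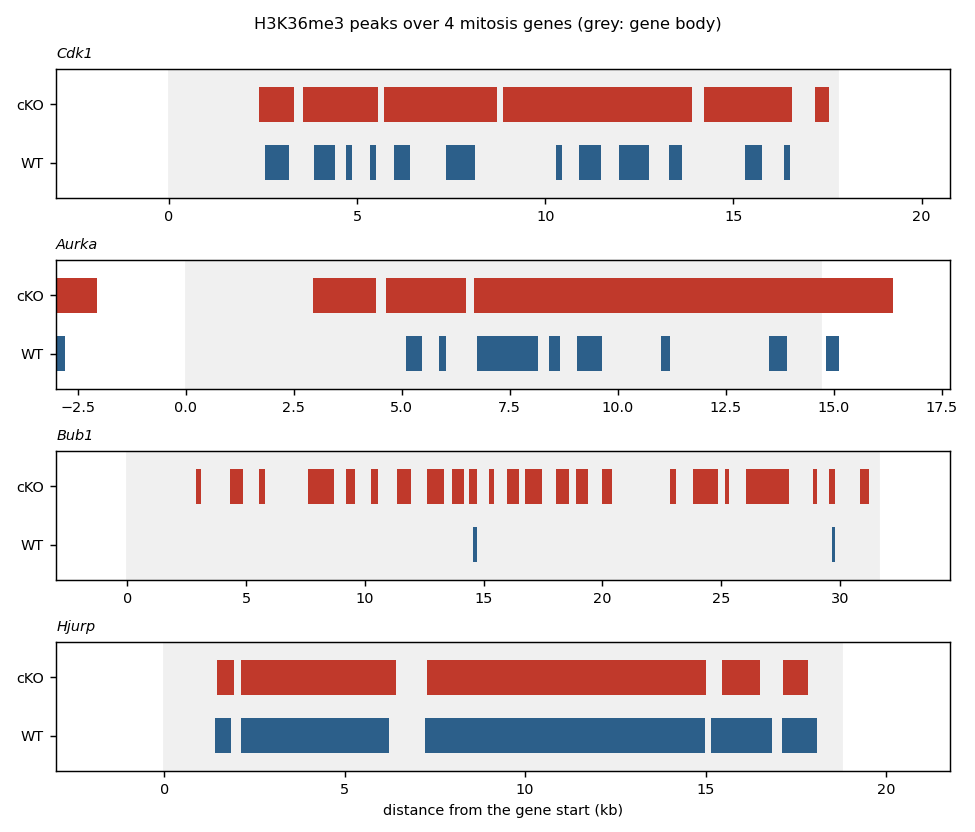
Peaks over Cdk1, Aurka, Bub1 and Hjurp, drawn by distance from the gene start in kb (horizontal axis), with cKO peaks (red) above WT peaks (blue) and the gene body in grey. In Cdk1 and Aurka the WT peaks lie within longer cKO peaks, Bub1 has 23 cKO and 2 WT peaks, and Hjurp has 5 peaks with nearly the same borders in both.

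No peak lay over the start of the 43 genes for which a start window was known, in either genotype. RefSeq start windows, 250 bases before to 50 bases after a gene's start, were at hand for 43 of the 51 genes (48 windows, build GRCm38.p6, the assembly of mm10). No cKO peak and no WT peak overlapped any of the 48, beside 1.26% of all 32851 windows in cKO and 0.338% in WT. At shares this low, none among 48 windows is close to the background. Among the 42 of these genes with a cKO peak, the first peak base lay from 1275 bp (Cdc20) to 175931 bp (Stag1) beyond the start. Among the 38 with a WT peak it lay from 1395 bp (Hjurp) to 49221 bp (Numa1). The first peak was nearer to the start in cKO in 36 of the 38 genes marked in both. The exceptions were Hjurp, with 1468 bp in cKO and 1395 bp in WT, and Smc3, with 4713 bp in cKO and 2117 bp in WT. A shorter distance in cKO was not particular to these genes. Its median was 2935 bp in cKO and 4986 bp in WT in 37 mitosis genes of at least 5 kb marked in both. In 5103 other such genes it was 5258 bp in cKO and 10051 bp in WT. The authors' class promoter-TSS was given to 30 cKO peaks and 20 WT peaks named for these 43 genes, and none of them lay within 2 kb of the named gene's own RefSeq start. The nearest lay 2133 bp away in cKO and 2115 bp in WT, and the medians were 15161 bp in cKO and 14260 bp in WT. No such distances were at hand for promoter-TSS peaks of other genes, so these are not shown to be particular to the list.

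The start sequences show what these unmarked windows hold. The CHR (searched as TTTGAA or TTTAAA on both strands) was present in 32 of the 48 windows (29 of 43 genes), beside 27.6% of all 32851 windows. TTTGAA alone was in 26 windows, beside 17.9% of all, TTTAAA in 11, beside 13.2%, and CCAAT, searched on both strands, in 36, beside 37.4%. A match of letters is a description and does not show that a factor binds there. For each role, the gene whose forward CHR lay nearest before the start is shown, with the 250 bases before the start on the gene's own strand, 5′ to 3′, and with capitals for the CHR on this strand and for CCAAT on either strand (read as ATTGG where it is on the other). The checkpoint and Ndc80 complex genes with a window held no forward CHR in those 250 bases. In the full windows, searched on both strands, Bub1b, Bub3, Ttk, Ndc80 and Spc25 held a CHR, while Bub1, Mad2l1 and Nuf2 did not. The windows, from RefSeq on GRCm38.p6, are Cdk1 at chr10:69352913-69353162 (minus strand), Plk1 at chr7:122159185-122159434, Cenpa at chr5:30666636-30666885, Ncapg at chr5:45669675-45669924, Espl1 at chr15:102296043-102296292 and Prc1 at chr7:80294226-80294475 (all plus strand).
Cdk1: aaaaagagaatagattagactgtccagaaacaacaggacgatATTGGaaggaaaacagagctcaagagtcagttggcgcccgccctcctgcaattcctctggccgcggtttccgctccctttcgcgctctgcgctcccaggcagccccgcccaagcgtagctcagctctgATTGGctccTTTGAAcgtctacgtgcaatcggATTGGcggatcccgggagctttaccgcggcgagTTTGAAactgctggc
Plk1: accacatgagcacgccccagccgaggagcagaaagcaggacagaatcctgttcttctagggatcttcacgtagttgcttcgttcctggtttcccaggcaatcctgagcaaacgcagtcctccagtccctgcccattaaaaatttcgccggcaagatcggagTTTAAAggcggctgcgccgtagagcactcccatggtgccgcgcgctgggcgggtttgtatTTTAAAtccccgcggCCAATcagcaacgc
Cenpa: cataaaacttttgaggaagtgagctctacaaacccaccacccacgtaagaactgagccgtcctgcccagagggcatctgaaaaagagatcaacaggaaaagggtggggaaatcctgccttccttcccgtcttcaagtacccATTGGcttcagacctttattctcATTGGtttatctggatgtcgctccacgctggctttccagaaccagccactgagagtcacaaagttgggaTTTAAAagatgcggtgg
Ncapg: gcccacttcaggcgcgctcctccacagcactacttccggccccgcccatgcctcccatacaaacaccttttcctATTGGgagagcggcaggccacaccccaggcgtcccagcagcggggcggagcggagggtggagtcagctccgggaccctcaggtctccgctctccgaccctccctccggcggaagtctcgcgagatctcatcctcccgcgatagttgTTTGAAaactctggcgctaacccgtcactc
Espl1: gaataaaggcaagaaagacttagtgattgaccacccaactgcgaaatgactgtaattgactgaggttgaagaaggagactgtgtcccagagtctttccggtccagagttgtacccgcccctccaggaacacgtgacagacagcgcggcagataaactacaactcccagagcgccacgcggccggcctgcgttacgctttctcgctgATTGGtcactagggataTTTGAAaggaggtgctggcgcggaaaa
Prc1: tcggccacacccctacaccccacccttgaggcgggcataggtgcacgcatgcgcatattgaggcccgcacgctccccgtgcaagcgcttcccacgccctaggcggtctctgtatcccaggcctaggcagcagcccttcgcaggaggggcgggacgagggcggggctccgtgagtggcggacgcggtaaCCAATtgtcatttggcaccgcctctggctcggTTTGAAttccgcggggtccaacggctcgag
The first base of the CHR nearest the start lay 15 bases before it in Cdk1, 29 in Plk1, 17 in Cenpa, 30 in Ncapg, 27 in Espl1 and 30 in Prc1. These distances are from the start to which the window belongs. The gene span used for coverage begins earlier in Cenpa (30666877), Ncapg (45669891), Espl1 (102296254) and Prc1 (80294445). In Ncapg, Espl1 and Prc1 that CHR therefore lies inside the span. Cdk1 held 3 CCAAT boxes, Cenpa 2, and Plk1, Ncapg, Espl1 and Prc1 1 each. The CHR letters were TTTAAA in Plk1 and Cenpa and TTTGAA in the other 4. None of these windows carried a peak in either genotype, although coverage of the gene behind it ran in cKO from 15.0% (Ncapg) to 76.9% (Cdk1).

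Along the body, divided into 10 equal segments, coverage was low in segment 1 and high from the middle to the end. Strand was known from the start windows for 37 mitosis genes of at least 5 kb that were marked in both genotypes. Their mean coverage in segment 1 was 7.12% in cKO and 2.33% in WT. In segment 3 it was 51.9% in cKO and 12.1% in WT, and it was highest in segment 8 in cKO (71.7%) and in segment 7 in WT (24.4%). In 5103 other genes of that length marked in both, segment 3 had 21.3% in cKO and 3.97% in WT, and the highest mean was that of segment 9 (50.3% in cKO and 13.7% in WT). The last covered base lay a median of 127 bp from the end of the 37 genes in cKO and 833 bp in WT, and a peak reached the gene's end in 16 of the 37 in cKO and 4 in WT. In the other genes these medians were 333 bp in cKO and 1958 bp in WT, and 26.5% had a peak at the end in cKO and 3.41% in WT.

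**Figure D4:**
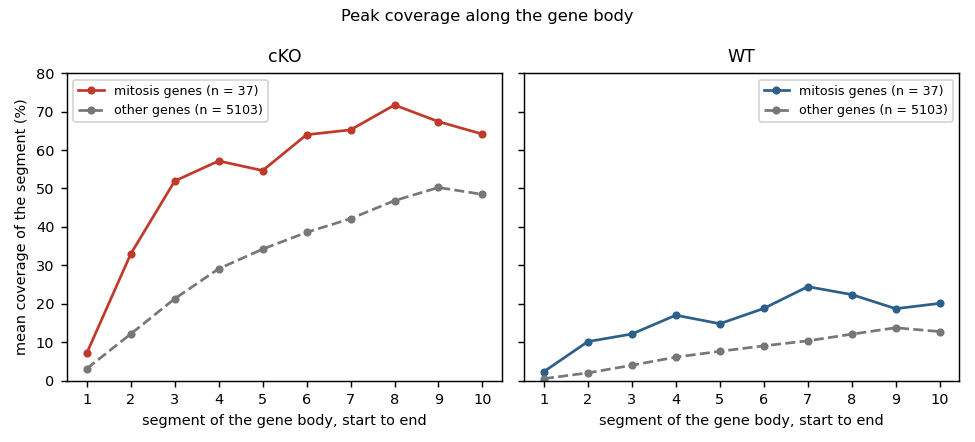
Mean share of each of 10 equal segments of the gene body inside peaks (%, vertical axis) from start to end (horizontal axis), in cKO (left) and WT (right). Solid lines are 37 mitosis genes and dashed lines 5103 other genes, all of at least 5 kb and marked in both genotypes. Mitosis genes are at 51.9% in segment 3 in cKO, where the other genes are at 21.3%.

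By the authors' classes, introns held 68.6% of the 563 cKO peaks named for mitosis genes (exact binomial interval 64.5 to 72.4%, counting error only), beside 64.0% of all genic cKO peaks. They held 56.3% of the 336 WT peaks (interval 50.8 to 61.6%), beside 50.9% of all. Exons held 13.1% in cKO (10.5 to 16.2%) and 21.7% in WT (17.4 to 26.5%), beside 16.1% of all genic peaks in cKO and 23.3% in WT. First introns held 1.81% of the 386 cKO intron peaks (0.732 to 3.70%), beside 5.61% of all cKO intron peaks, and 1.59% of the 189 WT intron peaks (0.329 to 4.57%), beside 4.12%. Last exons held 32.4% of the 74 cKO exon peaks (22.0 to 44.3%), beside 48.8%, and 23.3% of the 73 WT exon peaks (14.2 to 34.6%), beside 41.6%. Peaks of 1 gene are not independent, so these intervals are too narrow as a statement on genes.

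The genes of the cyclin-Cdk1 engine were all marked in both genotypes. Median coverage of the 7 was 58.9% in cKO and 16.3% in WT, and the 6 long enough to be counted were all higher in cKO. Cdk1, the kinase whose activity starts mitosis (chromosome 10, 69335146 to 69352912), had 5 named cKO peaks summing to 13289 bp and 12 named WT peaks summing to 5158 bp. Peaks covered 76.9% of its body in cKO and 29.0% in WT, but with peaks within 3 kb joined 85.3% in cKO and 78.6% in WT, which is under 10 points. Its partner cyclin B1 (Ccnb1) had 62.7% coverage in cKO and 23.0% in WT, and cyclin A2 (Ccna2) 58.9% in cKO and 16.3% in WT. Cyclin B2 (Ccnb2) showed the largest ratio of named length, with 24 cKO peaks summing to 14921 bp against 6 WT peaks summing to 1471 bp. Of these, 17 cKO and 3 WT peaks lay outside its body, where the ratio counts sequence of its neighbourhood. Within the body Ccnb2 had 67.4% coverage in cKO and 19.1% in WT. Cdc25b and Cdc25c encode phosphatases that remove the inhibitory phosphates from Cdk1. Cdc25b had 43.6% in cKO and 10.1% in WT. Cdc25c had 6 named peaks summing to 3484 bp in cKO and none in WT, and its body, with 1 WT peak named Gm3550, was covered over 45.5% in cKO and 0.905% in WT. Cdc20, the activator of the anaphase-promoting complex, is 4443 bp long, too short to be called, and had 56.0% coverage in cKO and 15.7% in WT.

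The mitotic kinases and the chromosomal passenger complex had the highest median coverage of the 8 roles in cKO. All 7 were marked in both genotypes and higher in cKO, and the median was 74.2% in cKO and 23.2% in WT. Plk1, the polo-like kinase of mitotic entry and spindle assembly, had 76.8% in cKO and 33.2% in WT, and 82.5% in cKO and 74.9% in WT with peaks joined. Aurka, the Aurora kinase of the spindle poles (chromosome 2, 172356190 to 172370886), had 3 named cKO peaks summing to 13010 bp against 8 named WT peaks summing to 3719 bp. Its coverage was 77.2% in cKO and 23.2% in WT. The longest cKO peak there measured 9689 bp and the longest WT peak 1395 bp. In the passenger complex, which corrects faulty attachments, the kinase Aurkb had 56.8% in cKO and 20.1% in WT (with peaks joined 67.6% in cKO and 61.4% in WT), and its scaffold Incenp 74.2% in cKO and 29.7% in WT. Cdca8 (borealin) had 87.2% in cKO and 26.7% in WT, and Birc5 (survivin) 50.5% in cKO and 12.8% in WT. Plk4, which starts centriole duplication, was the least covered of the group (38.2% in cKO, 9.79% in WT) and had the largest ratio of named length, 5.31.

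Spindle assembly checkpoint genes were sparsely marked in WT. Median coverage of the 5 was 37.7% in cKO and 1.85% in WT, and all 5 were higher in cKO. Bub1, a checkpoint kinase of the kinetochore (chromosome 2, 127800197 to 127831859), had 23 cKO peaks summing to 11935 bp and 2 WT peaks summing to 326 bp, a ratio of 36.6. Its coverage was 37.7% in cKO and 1.03% in WT. Ttk (the kinase Mps1, which starts checkpoint signalling) had 32.0% in cKO and 1.85% in WT. Mad2l1, whose product binds Cdc20 to hold back anaphase, had 3 cKO peaks over 35.9% of its body and none in WT. Bub1b (BubR1) and Bub3, partners in the inhibitory complex, were already marked in WT. Bub1b had 69.2% coverage in cKO and 11.5% in WT, and Bub3 59.0% in cKO and 16.5% in WT.

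The 4 genes of the Ndc80 complex, which grips the microtubule end, were all marked in both genotypes and higher in cKO. Ndc80 had 65.4% coverage in cKO and 11.2% in WT, and Nuf2, its partner at the microtubule, 55.3% in cKO and 7.54% in WT. Spc25 had 39.9% in cKO and 2.46% in WT, and Spc24 34.0% in cKO and 3.09% in WT. These last 2 genes encode the pair that anchors the complex to the inner kinetochore. Of the peaks named Spc24, 10 of 12 in cKO and 7 of 8 in WT lay outside its body. In the body of Ndc80, 17 of 23 cKO peaks and 12 of 15 WT peaks carried the name Gm23115.

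Centromere and kinetochore genes spanned a wide range, with 2.08 to 75.7% coverage in cKO and 0 to 79.7% in WT. Of the 10 genes, all were marked in cKO and 8 in WT, 7 were higher in cKO by the rule and none was lower. Cenpa, the histone H3 variant that marks centromeres (chromosome 5, 30666877 to 30674837), had 47.5% coverage in cKO and 18.5% in WT. The outer kinetochore proteins Cenpe, a kinesin, and Cenpf were among the more covered, with 63.4% in cKO and 11.0% in WT for Cenpe and 62.1% in cKO and 13.5% in WT for Cenpf. Of the constitutive inner kinetochore, Cenpt had 42.4% in cKO and 8.61% in WT (with peaks joined 47.5% in cKO and 39.5% in WT), Cenph 29.8% in cKO and 0.937% in WT, and Cenpc1 13.4% in cKO and 1.36% in WT. Cenpk and Cenpi had 3 and 5 short cKO peaks and none in WT. Mis18a, needed to license new CENP-A, had 28.1% in cKO and 4.02% in WT, and its only WT peak had no cKO peak over it.

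Hjurp, the chaperone that loads CENP-A, was the exception. It had 5 peaks in its body in each genotype, covering 14225 bp in cKO and 14971 bp in WT, and its coverage of 79.7% in WT was the highest of all mitosis genes there. Among all genes of at least 5 kb, its coverage stood at percentile 99.997 in WT and 98.9 in cKO. Coverage lower in cKO by any amount was found in 2.13% of the 6398 long genes with a WT peak. The strongest peak by p-value among mitosis genes lay over Hjurp in both lists, at chr1:88262644-88270366 in cKO (rank 15 of 95750) and at chr1:88262659-88270416 in WT (rank 16 of 36820). The WT peak, 7758 bp long, was the longest of the whole WT list. The local background under the 5 Hjurp peaks, recovered from the authors' pileup and fold, was 4.00 to 5.48 times the genome-wide level in cKO and 1.52 to 2.24 times in WT. A background at least as high as the lowest of these was found under 0.508% of all cKO peaks and 7.57% of all WT peaks. Its part in the Hjurp values was not tested. The median over all peaks in mitosis genes was 1.00 in both lists. Single peaks with more occurred elsewhere, up to 6.35 times in Cenpe in cKO and 2.88 times in Smc3 in WT.

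Of the condensin and mitotic chromosome genes, all 7 were marked in both genotypes and higher in cKO, with median coverage of 67.7% in cKO and 17.8% in WT. With peaks within 3 kb joined, 3 of the 7 were no longer higher by 10 points. They were Top2a (93.1% in cKO and 90.1% in WT), Mki67 (79.1% in cKO and 77.9% in WT) and Ncapd2 (90.5% in cKO and 88.4% in WT). Top2a, the topoisomerase that untangles sister chromatids (chromosome 11, 98992947 to 99024199), had 10 cKO peaks in its body, the longest of 10191 bp, against 28 WT peaks, the longest of 827 bp. They covered 85.6% in cKO and 29.4% in WT. The peaks named Top2a gave a ratio of 1.61, and 3 of the cKO and 10 of the WT body peaks carried other names. Mki67, the proliferation antigen that coats mitotic chromosomes, had 72.3% in cKO and 31.7% in WT. The condensin I subunits differed widely among themselves. Ncapd2 had 85.5% in cKO and 57.5% in WT, and Ncaph 67.7% in cKO and 17.8% in WT. Ncapg had 15.0% in cKO and 0.496% in WT, where a lone peak of 152 bp, the modelled fragment length of that library, gives the ratio of named length of 44.5 an uncertain base. The core subunits shared by both condensins lay between, with 35.2% in cKO and 6.08% in WT for Smc4 and 28.4% in cKO and 2.66% in WT for Smc2.

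Cohesin and separase genes held the 2 least covered members. Of the 6, 5 were marked in cKO and 4 in WT, and 4 were higher in cKO. Espl1 (separase), which cleaves cohesin at anaphase, had 68.9% coverage in cKO and 12.5% in WT. Of the cohesin ring subunits, Rad21 had 48.1% in cKO and 13.6% in WT, and Smc3 had 45.8% in cKO and 10.2% in WT. Smc1a, on the X chromosome, had 15 named cKO peaks summing to 9566 bp and 1 WT peak of 401 bp, with 21.3% coverage in cKO and 0.880% in WT. Stag1, the longest gene of the list (360836 bp), had 8 cKO peaks in its body and none in WT. The X chromosome carries 2 of the 51 genes, Smc1a and Cenpi. Among all genes of at least 5 kb, a peak was present in cKO in 28.6% of X-linked and 53.3% of autosomal genes, and in WT in 8.03% of X-linked and 39.4% of autosomal genes.

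The 5 genes of the spindle and cytokinesis were all marked in both genotypes and higher in cKO. Ect2, the exchange factor that activates RhoA at the cleavage furrow, had 31 named cKO peaks summing to 20934 bp against 8 WT peaks summing to 2266 bp. Its coverage was 47.7% in cKO and 4.33% in WT. Anln (anillin, of the contractile ring) had 48.7% in cKO and 7.26% in WT, and Tpx2, the activator of Aurora A on spindle microtubules, 58.9% in cKO and 8.89% in WT. Prc1, which bundles the central spindle, had 65.2% in cKO and 28.8% in WT. Numa1, which anchors microtubules at the poles, had 31.0% in cKO and 14.6% in WT. Its first peak lay 46399 bp beyond the start in cKO and 49221 bp in WT, in a body of 80983 bp.

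A second comparison kept only the strongest cKO peaks, 5308 in number, that together span as many bases as the WT list, so the total is equal by construction. Of the 50 long mitosis genes, 13 were higher by at least 10 points, beside 4.8% of all genes, and 3 were lower (Ccnb1, Cdc25b and Hjurp), beside 2.21%. These shares are over all 16849 genes of that length, of which 6398 were marked in WT. Only a gene marked in WT can be lower, and the shares among marked genes, which were not computed, would be higher. By any amount, 23 were higher, 22 lower and 5 equal, and the median difference over the 51 genes was 0. The kinases and the passenger complex held 6 of the 13, with differences of 15.2 points (Incenp) to 37.9 points (Cdca8), and only Plk4 was lower (-2.47). The condensin and chromosome group held 4, with Top2a at 30.5, Ncaph at 25.4, Mki67 at 21.5 and Ncapd2 at 17.6 points. The others were Ccnb2 (25.3), Rad21 (19.1) and Cdk1 (12.5). No gene of the checkpoint, the Ndc80 complex, the centromere or the spindle group was higher by 10 points. The body of Ccnb1 then held no cKO peak (-23.0), nor did those of Cdc25b (-10.1) and the short Cdc20 (-15.7), while Hjurp had -15.8 points.

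**Figure D5:**
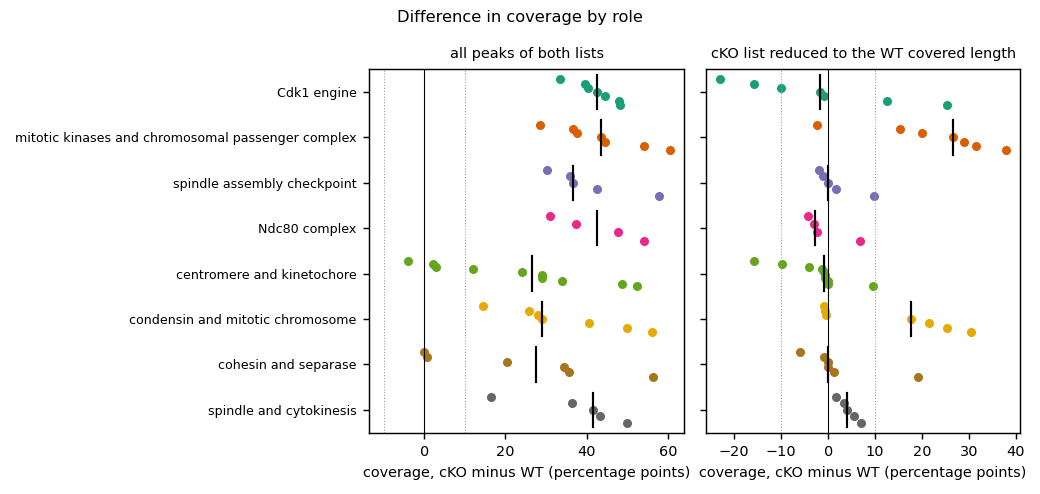
Difference in coverage, cKO minus WT, in percentage points (horizontal axis), for each of the 51 genes by role (rows). The left panel uses all peaks and the right panel only the strongest cKO peaks that span as many bases as the WT list. Black bars are the median of each role and dotted lines mark 10 points. In the right panel the kinases and passenger complex have a median of 26.7 points, the condensin group 17.6, and the other roles from -2.78 to 4.02.

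Most other genes of the pathway were marked too. Of 84 further mitosis genes, 82 were marked in cKO and 70 in WT, and 65 of the 76 longer than 5 kb were higher in cKO and none lower, beside the 32.6% above. Their median coverage was 38.5% in cKO and 4.11% in WT. Of 49 DNA replication genes found in the reference, 48 were marked in cKO and 44 in WT, 41 of 46 were higher, and the medians were 52.4% in cKO and 6.11% in WT. Among long genes already marked in WT, 59 of 64 further mitosis genes and 39 of 43 replication genes were higher, beside 75.3% of all such genes. The 50 long members of the mitosis list had medians of 48.4% in cKO and 10.6% in WT. At the matched covered length, 7 of the 76 further mitosis genes were higher and 4 lower, and 5 and 4 of the 46 replication genes, against 13 and 3 of the 50. The largest ratio of named length among the further genes was that of Ncapg2, of condensin II (43.4), with 30.2% of the body covered in cKO and 0.596% in WT. This ratio rests on 2 named WT peaks summing to 347 bp. Zw10, a checkpoint protein of the kinetochore, had a ratio of 29.3, from 26 named cKO and 3 named WT peaks. Its body held 17 cKO and 7 WT peaks, with 57.5% covered in cKO and 7.48% in WT. Mastl, the Greatwall kinase, had a ratio of 28.1, with 17.3% covered in cKO and 0.618% in WT. That ratio rests on 1 named WT peak of 244 bp. A lower summed length in cKO was found for Cenpb and Kif20a. Cenpb, which binds a centromeric DNA box, had no named cKO peak and 1 named WT peak of 207 bp, with 10.1% of its body covered in cKO and 7.45% in WT. The other was Kif20a, a kinesin of cytokinesis, with 1652 bp in cKO and 2474 bp in WT by name, but with 76.0% of its body covered in cKO and 37.1% in WT.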

How the data were processed

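Per the submitters' processing notes, alignment used Bowtie2 2.2.9 and the build was mm10. Per the file headers, narrow peaks were called by MACS 2.1.1.20160309 (the notes give 2.1.0) for each ChIP library over its input, at a p cutoff of 1.00e-05. The cKO input carries 2 numbers in its name, and whether it was pooled is not stated. Narrow calling can split a broad mark into fragments. The deposited lists give the pileup signal at each summit, the fold enrichment over the local input, and p-values and q-values as -log10. All were made by the authors and used to rank or filter peaks within a list. Pileup and fold were also used to recover the background under a peak. The headers state that q was not calculated, yet the column is filled. The deposited annotation gives each peak a class and a gene name, by a tool that no source used here names. Its starts lie 1 bp above those of the lists, whose positions were used.

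Named non-intergenic peaks were counted and their lengths summed per gene with pandas 2.3.3. Coverage is the share of a RefSeq protein-coding gene span (GRCm38.p6) inside peaks, with an overlap of at least 1 bp, and it was tested on simulated intervals. The background under a peak is (pileup + 1) / fold - 1, relative to fragment length times tags over genome size. Strand came from the RefSeq start windows, whose starts can differ from that of the gene span. Distances from the start to the first peak were taken from the span. Interval bounds are exact (Clopper-Pearson, 95%). The members and lists were chosen with earlier results of these data known. Genes given in full were, by rule, the 2 to 4 of each role with the largest ratio of named length, and those lower, marked in 1 genotype, unmarked or most covered. The others are given for completeness, and the 4 genes of the peak map were picked with their values known. Alternatives are given in the closing section. No replicate exists, so no test was made.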

Additional observations from a re-analysis of the deposited data

How the results depend on the processing

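With -log10 q of at least 5, fold enrichment of at least 4, the cKO list held to as many peaks as WT, intergenic peaks included, promoter-TSS peaks left out, or peaks taken by overlap with the gene span, all of the 8 counts and medians over the list stayed within 1.5 times of the values above. For the last of these and for intergenic peaks, the 3 coverage values are not affected and were not recomputed. With the strongest cKO peaks spanning as many bases as WT, 8 genes had a summed length at least 2 times higher and 3 at least 2 times lower. The median log2 ratio was then 0.64 (2.07 with all peaks), 13 genes were higher and 3 lower in coverage, and the median difference in coverage was 0. With peaks within 3 kb joined, 22 genes were at least 2 times higher and the median log2 ratio was 1.04. A call at 4 times in place of 2 left 22 genes. The log2 ratio of 8 genes called higher changed sign at the WT covered length, to -0.17 in Ccna2, -0.88 in Ccnb1, -0.72 in Plk4, -1.22 in Nuf2, -1.72 in Cenpa, -0.072 in Cenpf, -0.15 in Smc4 and -1.40 in Smc3. With joined peaks it became -0.0069 in Mki67 and -0.046 in Prc1. That of Top2a, not called with all peaks, became -0.49 at the WT covered length and -0.79 with joined peaks. A further 9 genes had no cKO peak left at the WT covered length and give no ratio. Under both of these settings the lists themselves change by construction. No paired analysis was possible because each genotype has 1 ChIP library, and no library could be left out for the same reason. Depth is that of 1 library per genotype, and a gene without a peak is below the calling threshold, not shown to lack the mark.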

Other observations

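Within the 84 further mitosis genes, the subgroups by gene name had different levels. The 5 subunits of the anaphase-promoting complex (Cdc16, Cdc23, Cdc27, Anapc1 and Anapc5), the ligase that ends mitosis, were marked in both genotypes and all higher in cKO, with a median coverage of 67.0% in cKO and 20.7% in WT. Of 11 mitotic kinesins, 11 were marked in cKO and 9 in WT, 10 were higher, and the medians were 49.4% in cKO and 7.35% in WT. Of all genes of at least 5 kb, 32.6% were higher, and of those marked in WT 75.3%. Kif2c, which depolymerises microtubules at centromeres, had 9 cKO and 17 WT peaks in its body and 78.9% coverage in cKO against 21.9% in WT. Its difference was still 47.6 points at the matched covered length. Of 9 further Cenp genes, 8 were marked in cKO and 5 in WT, with medians of 10.5% in cKO and 0.849% in WT. Of the X-linked genes, Kif4 (chromokinesin) had 6.26% coverage in cKO and Stag2 (cohesin) 0.951%, and neither had a WT peak. Cenpw and Cks2 had no peak in either genotype. These subgroups were formed after the values were seen.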
